A study of Mus musculus with 6 samples.

Results

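This account follows 8 genes that mark the B-1 lineage of mouse B cells (Cd5, Bhlhe41, Bhlhe40, Zbtb32, Arid3a, Lin28b, Plscr1 and Cd9) in a mouse model of mantle cell lymphoma. They were chosen by name, with earlier results of these data known, and matched by Ensembl gene ID. All 8 were found among the 56884 genes of the count table. The WT group is spleen B cells from 3 wild-type mice, in columns marked BL6. The P1 group is 3 spleens of passage-1 mice of an adoptive transfer of the Eµ-SOX11CCND1 model, in which the names of the transgene join the immunoglobulin heavy chain enhancer Eµ to SOX11 and cyclin D1. The labels describe B cell selection for the WT samples only, so the P1 samples are whole spleen, and selection, genotype, transfer and tumour growth cannot be told apart in this comparison. Ages, sexes and the number of donors behind the 3 recipients are not stated in the labels. All 3 P1 libraries had the same most counted Ighv gene, Ighv1-69, at 55.5% to 96.8% of Ighv counts, so they may not stand for separate tumours. No label ties a WT column to its mouse, so the WT libraries are named A, B and C in column order, while P1 libraries keep the numbers of their labels (3, 4 and 5).

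B-1 cells are self-renewing B cells that arise largely before and around birth and make natural antibodies. The B-1a subset carries CD5, a surface receptor that dampens antigen receptor signals and is best known from T cells. LIN28B blocks the let-7 microRNAs in fetal progenitors, which leaves the transcription factor ARID3A free to drive the fetal B cell programme. The repressor BHLHE41 and its close relative BHLHE40 maintain the B-1a pool of adults, and ZBTB32, PLSCR1 and CD9 are genes that B-1 cells carry at higher levels than follicular B cells. Mantle cell lymphoma cells of patients are typically CD5-positive.

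Of the 8 genes, 7 passed the filter on low counts and 6 were higher in the P1 group (quasi-likelihood test of edgeR, with a Benjamini-Hochberg adjusted p under 0.05 and n = 3 per group), with 0 lower. Among all 15462 tested genes 16.9% were called higher and 11% lower. The 6 were Zbtb32, Bhlhe41, Cd5, Plscr1, Arid3a and Cd9, with estimated changes of 19 times, 14.7 times, 12.1 times, 6.09 times, 6 times and 4.71 times. Bhlhe40 was at about the same level in both groups, and Lin28b had 0 counts in all 6 libraries. The median log2 fold change of the 7 tested genes was 2.61, against 0.02 for all tested genes. In the 6 genes every P1 library lay above every WT library, a separation upwards that 22.9% of all tested genes had too.

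Markers of several other cell types were higher in P1 too, and those of B cells lower. Of 14 pan-B genes 0 rose and 14 fell, and their summed level was 9670 to 10400 CPM (counts scaled to a common library size) in WT against 1520, 1050 and 2850 CPM in P1 replicates 3, 4 and 5. The 13 T cell genes were 12 higher and 1 lower, the 10 neutrophil, monocyte and macrophage genes 5 higher and 0 lower, and the 7 erythroid genes 7 higher and 0 lower. Among all tested genes 16.9% were higher and 11% lower. The 5 were S100a8, S100a9, Ly6g, Ngp and Lyz2, while Csf1r, Cd68, Adgre1, Itgax and C1qa were not called. Summed neutrophil, monocyte and macrophage genes stood at 134 to 330 CPM in WT and at 896 to 6150 CPM in P1. Erythroid genes stood at 50.6 to 74.4 CPM and 6110 to 193000 CPM. Every gene of these 4 lists had counts in all 6 libraries, except Ly6g, which was at 0 in WT A and C. The part these other cells play in the fold changes was not tested. In such bulk samples more cells of a type and more RNA of a gene per cell cannot be told apart. Library totals were 12196413 to 14266132 counts in WT and 7510327 to 10363396 in P1.

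Promoter sequence is shown for 4 of the genes: Cd5, which names the B-1a subset, Zbtb32, which had the largest fold change, and Bhlhe41 and Lin28b, whose windows held a match to a searched motif. Each window is the 250 bases before the start of the RefSeq gene on build GRCm38.p6, 5′ to 3′ on the gene's own strand, and this build differs from that of the count table. They lie at chr19:10738975-10739224 (Cd5), chr6:145865421-145865670 (Bhlhe41), chr7:30598910-30599159 (Zbtb32, the outer of its start sites) and chr10:45470202-45470451 (Lin28b), all on the minus strand. Capitals mark CACGTG, the E-box that BHLHE40 and BHLHE41 bind.
Cd5: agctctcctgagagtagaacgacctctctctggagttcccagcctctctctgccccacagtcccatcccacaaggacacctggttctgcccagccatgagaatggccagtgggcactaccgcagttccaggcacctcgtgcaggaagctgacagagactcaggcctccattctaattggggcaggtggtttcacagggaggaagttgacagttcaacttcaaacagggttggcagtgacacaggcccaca
Bhlhe41: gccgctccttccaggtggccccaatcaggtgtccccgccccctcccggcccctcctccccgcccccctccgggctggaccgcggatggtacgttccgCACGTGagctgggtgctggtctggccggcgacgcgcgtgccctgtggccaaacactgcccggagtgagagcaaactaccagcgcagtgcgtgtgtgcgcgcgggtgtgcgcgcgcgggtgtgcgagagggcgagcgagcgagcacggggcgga
Zbtb32: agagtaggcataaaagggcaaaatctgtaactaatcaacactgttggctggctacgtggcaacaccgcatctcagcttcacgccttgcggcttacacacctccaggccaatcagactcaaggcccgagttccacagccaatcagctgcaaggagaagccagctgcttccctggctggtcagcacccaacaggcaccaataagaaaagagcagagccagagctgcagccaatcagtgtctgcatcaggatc
Lin28b: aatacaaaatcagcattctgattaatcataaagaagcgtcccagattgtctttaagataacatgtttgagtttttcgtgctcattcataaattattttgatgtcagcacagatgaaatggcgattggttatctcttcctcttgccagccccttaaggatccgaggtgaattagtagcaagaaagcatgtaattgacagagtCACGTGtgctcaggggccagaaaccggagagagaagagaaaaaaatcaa
The motifs CACGTG, which reads the same on both strands, and AACAAT and AACAAAG, which are SOX-type and were searched on both strands, were looked for in the 7 windows that RefSeq gives for 6 of the 8 genes. CACGTG was found in Bhlhe41, 153 to 148 bases before the start, and in Lin28b, 49 to 44 bases before it. It occurs in 6.02% of all 32851 promoter windows of that length. AACAAT and AACAAAG were in none of the 7, and are in 9.42% and 5.03% of all windows. The Bhlhe41 window was the richest in G and C among those shown (73.6%) and that of Lin28b the poorest (39.2%). The gene with the E-box and a 14.7 times higher level and the gene with the E-box and no counts thus share this match, which is a description of the letters alone.

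Cd5 (ENSMUSG00000024669.9, chromosome 19, 10694480 to 10716366 on GRCm39, as are all gene positions here) encodes the CD5 receptor. Its counts were 50, 36 and 44 in the WT libraries (A, B, C) and 448, 107 and 357 in the P1 libraries (replicates 3, 4, 5), the order used throughout. Scaled to library size, that was 3.02, 2.30 and 3.31 CPM against 38.4, 24.7 and 41.2 CPM. All P1 libraries lay far above the narrow WT range, with replicate 4 the lowest of them. Cd5 rose by 3.59 ± 0.34 (log2 fold change ± standard error, as below, edgeR adjusted p = 0.000579, n = 3 per group), and this held in all 10 alternative analyses.

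Cd3e, a chain of the T cell receptor complex that B cells lack, was read as a rough measure of T cell RNA in each library. It is a single gene, and the T cell genes differed in whether P1 replicate 4 or 5 stood higher. Cd3e stood at 2.11, 0.959 and 1.81 CPM in WT and at 76.1, 12 and 25.1 CPM in P1. It too rose, by 4.54 ± 0.73 (edgeR adjusted p = 0.00286), and by 3.51 without P1 replicate 3. The number of Cd5 counts per Cd3e count was 1.43, 2.4 and 1.83 in WT and 0.504, 2.06 and 1.65 in P1. The ranges overlapped, and the log2 ratio differed by -0.63 between P1 and WT (exact permutation test, two-sided, p = 0.5, n = 3 per group, where 0.1 is the smallest p this design allows). P1 replicate 3, with the most T cell RNA, had the fewest Cd5 counts per Cd3e count, and without it the difference was 0.00. A rise of Cd5 relative to Cd3e was thus not detected, beside its rise in total.

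The choice of T cell genes mattered for this ratio. Over the summed counts of the 13 T cell genes the log2 difference was 2.53, with P1 above WT (exact permutation p = 0.1, n = 3 per group). That sum is led by Cd2 in the WT libraries, which had 2811, 2698 and 2120 counts there and 826, 156 and 325 in P1, and which mouse B cells express too. Over the T cell genes without Cd2 and Lck the difference was -0.59 (exact permutation p = 0.3, n = 3 per group), close to that over Cd3e. That denominator was chosen after the counts were seen.

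Relative to B cell genes Cd5 stood far higher in P1, in a measure that raises most genes. Scaling the libraries to pan-B genes, described below, put the median of all tested genes at 2.91 and called 89.4% of them higher. Bhlhe40, not called in the main fit, had a log2 difference of 2.83 per pan-B count, without overlap. This background holds for every pan-B ratio given here. Per 1000 counts of the summed pan-B genes there were 0.297, 0.221 and 0.343 Cd5 counts in WT and 25.3, 23.5 and 14.5 in P1, a log2 difference of 6.18 (exact permutation p = 0.1, n = 3 per group) that no single library decided (6.01 to 6.43). Replicate 5, the highest P1 library in CPM and the one with the highest pan-B level, was the lowest here. T cell RNA enters the numerator of this ratio and was not removed.

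**Figure D1:**
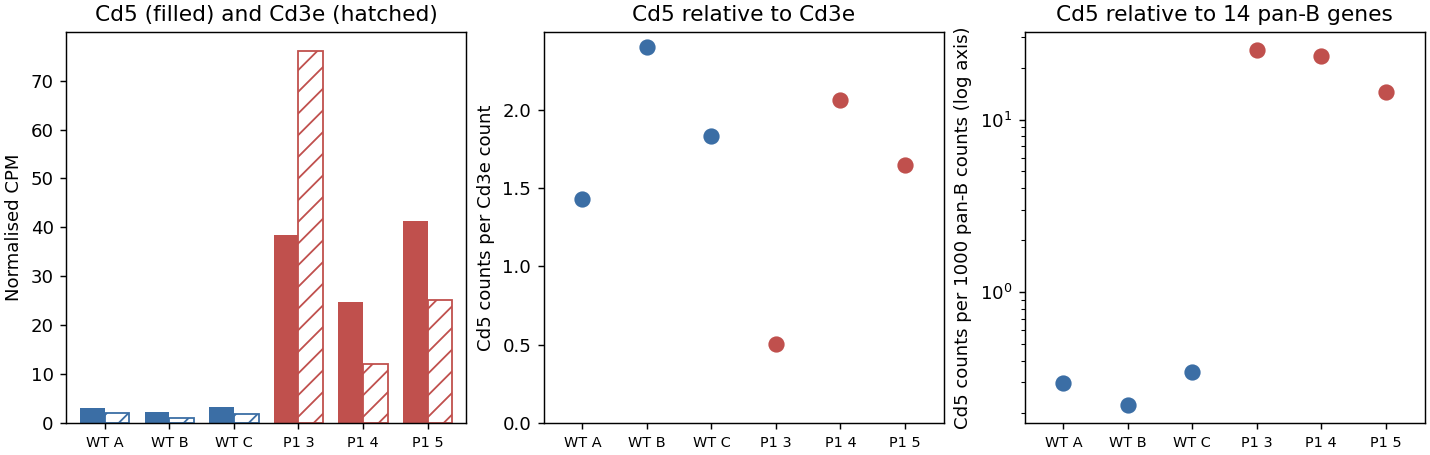
Cd5 beside Cd3e in each library: normalised CPM of both genes (left), Cd5 counts per Cd3e count (middle) and Cd5 counts per 1000 counts of 14 pan-B genes on a log axis (right), with WT in blue and P1 in red. Both genes are higher in P1, the Cd5 to Cd3e ratio overlaps between groups (0.504 to 2.06 in P1, 1.43 to 2.4 in WT), and the ratio to pan-B genes does not.

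Cd6, the neighbour and closest relative of Cd5 and likewise a receptor of T cells and B-1a cells, had 22, 3 and 21 counts in WT and 710, 143 and 474 in P1. It rose by 5.58 ± 0.65 (edgeR adjusted p = 0.000909). The Cd5 to Cd6 count ratio was 2.27, 12 and 2.1 in WT and 0.631, 0.748 and 0.753 in P1. The P1 ratios were nearly equal to each other, all below WT, and the log2 ratio differed by -2.44 between P1 and WT (exact permutation p = 0.1, and 0.1 after adjustment over 5 such pairs, n = 3 per group). Without WT B, in which Cd6 had 3 counts, the difference was -1.62. Cd6 counts per Cd3e count were 0.629, 0.2 and 0.875 in WT and 0.799, 2.75 and 2.18 in P1, which overlapped (log2 difference 1.82, exact permutation p = 0.2, n = 3 per group). Over the T cell genes without Cd2 and Lck, Cd6 stood at 0.064, 0.0146 and 0.0729 in WT and 0.103, 0.142 and 0.219 in P1, which did not overlap (log2 difference 1.85, exact permutation p = 0.1, n = 3 per group). Ratios within a library do not depend on how libraries are scaled, and these 5 pairs were chosen after the values were seen.

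Bhlhe41 (chromosome 6, 145803969 to 145811284), the B-1a repressor, stood at 9.78, 8.38 and 16.1 CPM in WT and at 57.9, 110 and 335 CPM in P1 replicates 3, 4 and 5. The P1 libraries were all higher but widely spread, with replicate 5 far above the others. The gene rose by 3.88 ± 0.66 (edgeR adjusted p = 0.00373), and by 2.86 ± 0.39 without P1 replicate 5 (adjusted p = 0.00265). Per 1000 pan-B counts it had 0.961, 0.803 and 1.67 counts in WT and 38.1, 105 and 117 in P1, so that replicates 4 and 5 came close to each other. An antisense model, Gm43909, shares 1280 of its 6720 exon bases and had 15 to 114 counts. Which strand was counted is not stated, so reads of the shared bases are uncertain.

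Bhlhe40 (chromosome 6, 108637590 to 108643886), its relative with a wider range of tissues, stood at 51.1, 76.2 and 104 CPM in WT and at 73.1, 108 and 81.8 CPM in P1. The groups overlapped, with WT A the lowest library and P1 replicate 4 the highest. Its log2 fold change was 0.18 ± 0.32 (edgeR adjusted p = 0.711), with an interval of -0.54 to 0.90, so a rise of the size of Bhlhe41 lies outside it. The count ratio of Bhlhe41 to Bhlhe40 went from 0.191, 0.11 and 0.155 in WT to 0.792, 1.03 and 4.1 in P1, a log2 difference of 3.33 (exact permutation p = 0.1, and 0.1 over 5 pairs, n = 3 per group). In the WT B cells Bhlhe40 thus had several times the counts of Bhlhe41, while in P1 their order differed between libraries.

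Zbtb32 (chromosome 7, 30289106 to 30298334), a zinc finger repressor that limits memory B cell responses, had 2.78, 2.75 and 4.44 CPM in WT and 57.4, 28.8 and 102 CPM in P1. Every P1 library was well above WT, with replicate 5 the highest and replicate 4 the lowest. It rose by 4.25 ± 0.51 (edgeR adjusted p = 0.000986), and without P1 replicate 5 by 3.69. Set against B cell genes the P1 libraries were closer to each other, with 37.8, 27.4 and 35.9 counts per 1000 pan-B counts, from 0.273, 0.263 and 0.459 in WT.

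Arid3a (chromosome 10, 79762877 to 79790852), the transcription factor of fetal and B-1 lymphopoiesis, was nearly constant in WT, at 53.8, 56.5 and 51.7 CPM. In P1 it stood at 213, 199 and 560 CPM. Replicate 5 was again the highest, and the other P1 libraries were close to each other. It rose by 2.58 ± 0.44 (edgeR adjusted p = 0.00362), and by 1.91 ± 0.20 without P1 replicate 5 (adjusted p = 0.000996). Against pan-B genes the P1 libraries drew together, at 141, 190 and 196 counts per 1000 from 5.29, 5.41 and 5.35 in WT.

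Its relative Arid3b went the other way, with 128, 95.9 and 108 CPM in WT and 33.9, 26.5 and 31.1 CPM in P1. Arid3b fell by 1.86 on the log2 scale (standard error 0.25, edgeR adjusted p = 0.00137), although it was at 1.03 and not called under the B-cell-centred scaling described below. The Arid3a to Arid3b count ratio was 0.419, 0.589 and 0.479 in WT and 6.29, 7.51 and 18 in P1. That is a log2 difference of 4.27 (exact permutation p = 0.1, and 0.1 over 5 pairs, n = 3 per group). Arid3c had at most 2 counts in any library.

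Lin28b (chromosome 10, 45252716 to 45362491), the fetal switch upstream of Arid3a, had 0 counts in each of the 6 libraries. A count of 0 allows up to 3 counts, or 0.181 to 0.226 CPM in WT and 0.257 to 0.691 CPM in P1, and this limit covers counting error only. Its paralog Lin28a, which blocks let-7 too, had 0 counts in the WT libraries and 152, 8 and 36 counts in P1 replicates 3, 4 and 5. Its P1 mean of 6.34 CPM was 96.1 times a limit of 3 counts over the WT group (edgeR adjusted p = 0.00437). Without P1 replicate 3 the mean was 45.5 times that limit (edgeR adjusted p = 0.00603). These multiples leave out the spread of the P1 libraries, which stood at 13, 1.84 and 4.16 CPM. Most Lin28a counts came from replicate 3, in which the neutrophil gene Ly6g also led, with 314 counts against 8 and 28. The part of other cell types in the Lin28a counts was not tested.

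Of the 9 further genes of the Lin28b and let-7 axis, 6 could be tested, of which 3 were higher, Lin28a among them, and 2 lower (median 0.50). The shares over all tested genes were 16.9% higher and 11% lower (median 0.02). Igf2bp3, an RNA-binding protein of fetal progenitors and a let-7 target, had 2.72, 1.73 and 1.51 CPM in WT and 7.45, 7.84 and 11.4 CPM in P1. It rose by 2.16 ± 0.43 (edgeR adjusted p = 0.00691). The chromatin protein gene Hmga1 rose by 1.27 ± 0.31 (edgeR adjusted p = 0.0176), a call lost without any 1 of the WT libraries (adjusted p = 0.0751 to 0.0908) and with library totals (0.137). Tut4, the uridyl transferase that LIN28 proteins recruit to let-7 precursors, fell by 1.48 (standard error 0.29, edgeR adjusted p = 0.00632), but was called higher under B-cell-centred scaling (1.56, adjusted p = 0.0281). Igf2bp1 and Hmga2, known for fetal expression, had at most 3 counts in any library. The let-7 microRNAs themselves were not measured by these libraries.

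Plscr1 (chromosome 9, 92131803 to 92154331), phospholipid scramblase 1, stood at 3.32, 4.73 and 8.13 CPM in WT and at 43, 27.9 and 27.4 CPM in P1. Its highest P1 library was replicate 3, unlike Bhlhe41, Zbtb32, Arid3a and Cd9, and the groups did not overlap. It rose by 2.61 ± 0.41 (edgeR adjusted p = 0.00263). Plscr1 is also induced by interferon, and of 10 interferon-stimulated genes 6 were higher and 0 lower (median 1.75), beside 16.9% and 11% of all tested genes. Rsad2, the antiviral protein viperin, reached 1220, 1390 and 56.5 CPM in P1 (8.37 ± 1.21, edgeR adjusted p = 0.00198). The summed level of those 10 genes was 168 to 177 CPM in WT and 2020, 2110 and 221 CPM in P1 replicates 3, 4 and 5. Plscr1 CPM were about equal in replicates 4 and 5. Per 1000 pan-B counts Plscr1 had 28.3, 26.6 and 9.6 counts in P1 (0.326, 0.453 and 0.841 in WT), and replicate 5 had the highest pan-B level of the P1 libraries. The part of interferon in the rise of Plscr1 was not tested. Plscr3 rose by 1.70 ± 0.31 (edgeR adjusted p = 0.00506, and 0.0549 with library totals), and the Plscr1 to Plscr3 count ratio was 0.474, 0.617 and 0.982 in WT and 1.39, 1.08 and 1.55 in P1 (log2 difference 1.01, exact permutation p = 0.1, and 0.1 over 5 pairs, n = 3 per group).

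Cd9 (chromosome 6, 125437229 to 125471754), a tetraspanin of the cell surface, stood at 10.4, 15.2 and 18.1 CPM in WT and at 58.6, 20.5 and 126 CPM in P1. P1 replicate 4 lay only just above the highest WT library. Cd9 rose by 2.23 ± 0.59 (edgeR adjusted p = 0.023), the least firm of the 6 calls. It was lost without WT A, B or C (adjusted p = 0.0964, 0.0874 and 0.0556), without P1 replicate 5 (1.44, adjusted p = 0.0532) and without a filter on low counts (0.0538). Platelets carry much CD9. Of 7 tested platelet and megakaryocyte genes 0 were higher and 0 lower, beside 16.9% and 11% of all tested genes. The summed level of the platelet list was 48.3 to 141 CPM in WT and 159, 108 and 50.7 CPM in P1. The part of platelets in the rise of Cd9 was not tested. Per 1000 pan-B counts Cd9 had 1.03, 1.46 and 1.87 counts in WT and 38.6, 19.5 and 44.2 in P1.

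The other tetraspanins went different ways. Cd81, a part of the B cell coreceptor, stood at 169, 186 and 173 CPM in WT and 74.7, 54.6 and 90.5 CPM in P1, and fell by 1.26 (standard error 0.27, edgeR adjusted p = 0.00893). Under the B-cell-centred scaling described below Cd81 was called higher instead (1.55, adjusted p = 0.00645). The leukocyte tetraspanins Cd37 and Cd53 were at -1.45 and -1.72 and not called (edgeR adjusted p = 0.0553 and 0.071). Cd37 was called lower without P1 replicate 5 (-2.12), with DESeq2 (adjusted p = 0.00957) and without a filter on low counts (edgeR adjusted p = 0.00735). Under B-cell-centred scaling it was called higher (1.17, edgeR adjusted p = 0.0435). Cd53 was called lower without P1 replicate 3 (-2.88) and with DESeq2 (adjusted p = 0.0183). The Cd9 to Cd81 count ratio was 0.0618, 0.0818 and 0.105 in WT and 0.784, 0.376 and 1.39 in P1, a log2 difference of 3.20 (exact permutation p = 0.1, and 0.1 over 5 pairs, n = 3 per group). Cd63, a tetraspanin of granules and lysosomes, rose by 3.65 ± 0.76 (edgeR adjusted p = 0.00843), and by 5.03 without WT C, which had 67 counts against 8 and 18 in the other WT libraries. Over all 13 relatives 10 were tested, with 4 higher and 2 lower and a median of 0.13, beside 16.9% and 11% of all tested genes.

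**Figure D2:**
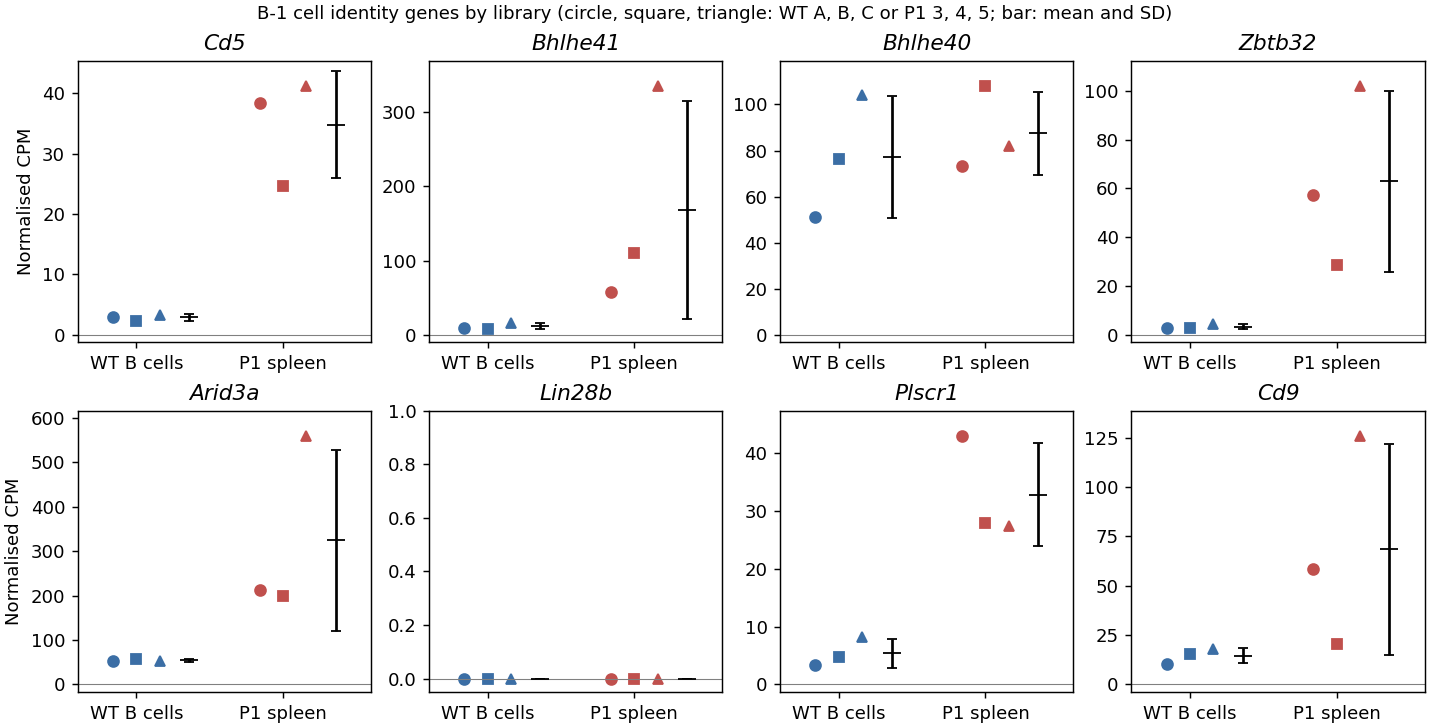
Normalised CPM of the 8 B-1 cell identity genes in each library, 1 panel per gene on a linear axis, with WT B cells in blue, P1 spleen in red and the mean ± SD of 3 libraries beside them. In Zbtb32, Bhlhe41, Cd5, Arid3a, Plscr1 and Cd9 the P1 points lie above all WT points, in Bhlhe40 they overlap, and Lin28b is at 0 throughout.

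Levels of different genes were compared per kilobase of exon, as CPM per kilobase. In WT B cells the order was Bhlhe40 (16.4 ± 5.66, SD, n = 3), Arid3a (9.71 ± 0.428), Cd9 (7.13 ± 1.89), Plscr1 (2.19 ± 1.00), Bhlhe41 (1.70 ± 0.613), Zbtb32 (1.41 ± 0.411) and Cd5 (0.584 ± 0.105). The ranges of Plscr1, Bhlhe41 and Zbtb32 over the libraries overlapped with each other, and the ranges at the other steps were apart. Within each WT library Bhlhe41 was nonetheless above Zbtb32 (1.45, 1.25 and 2.40 against 1.18, 1.17 and 1.88). In P1 spleen the order was Arid3a (58.3 ± 36.7), Cd9 (33.5 ± 26.1), Zbtb32 (26.7 ± 15.8), Bhlhe41 (25.0 ± 21.9), Bhlhe40 (18.6 ± 3.82), Plscr1 (13.3 ± 3.6) and Cd5 (7.05 ± 1.8). All neighbours there overlapped except Plscr1 and Cd5. Bhlhe40, the highest in WT, was thus the fifth in P1, and Cd5 was the lowest detected gene of the set in both groups.

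Because B cell genes made up much less of the P1 libraries, the fit was repeated with libraries scaled to equal levels of the 14 pan-B genes, which is called B-cell-centred scaling. It moved the median of all tested genes from 0.02 to 2.91 on the log2 scale and called 89.4% of them higher and 0.634% lower. Under it all 7 tested B-1 identity genes were called higher, from 3.18 for Bhlhe40 (edgeR adjusted p = 0.00123) to 6.86 for Zbtb32 (adjusted p = 0.000209). Cd5 stood at 6.40, Bhlhe41 at 6.46, Plscr1 at 5.52, Arid3a at 5.23 and Cd9 at 4.74. The 6 genes called with either scaling thus lay above the median of all genes under both, while Bhlhe40 lay close to it under both.

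**Figure D3:**
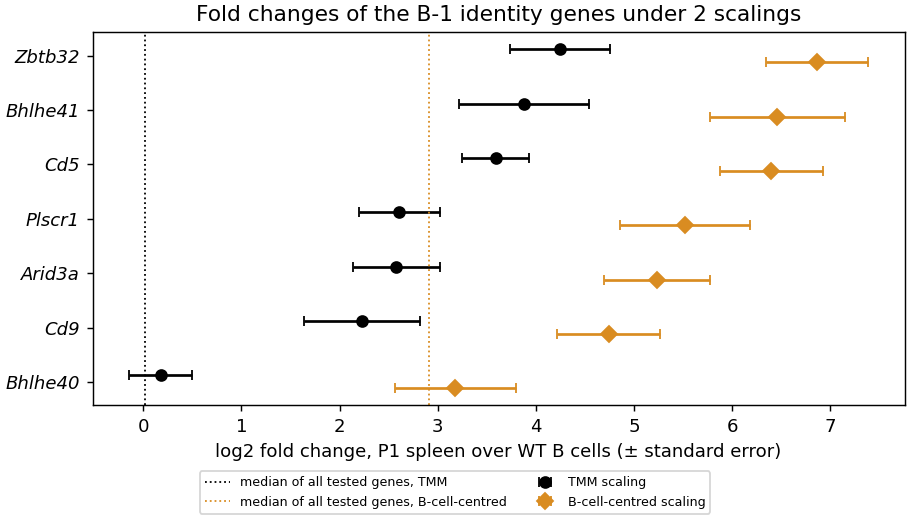
Log2 fold changes of P1 spleen over WT B cells for the 7 tested B-1 identity genes, with standard errors, under TMM scaling (black circles) and B-cell-centred scaling (orange diamonds). Dotted lines mark the median of all tested genes, 0.02 and 2.91, and Bhlhe40 is the gene nearest to the line under both scalings.

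Of 14 other genes associated with B-1 cells, 13 were tested, and 7 were higher and 1 lower, with a median log2 fold change of 1.04. Among all tested genes 16.9% were higher and 11% lower, with a median of 0.02. Spn, the sialoglycoprotein CD43 of B-1 cells, T cells and myeloid cells, had 22.2, 18.5 and 36.7 CPM in WT and 261, 106 and 206 CPM in P1, and rose by 2.89 ± 0.42 (edgeR adjusted p = 0.00207). Itgam, the integrin CD11b of peritoneal B-1 cells and of myeloid cells, had 65.5, 10.4 and 14.1 CPM in P1, where replicate 3 was also the richest in neutrophil genes. The inhibitory receptor gene Ctla4, which T cells share, rose by 3.44 ± 0.56 (edgeR adjusted p = 0.00311), and by 2.81 without P1 replicate 4. Ctla4 stood at 8.74, 30.9 and 13.9 CPM in P1 replicates 3, 4 and 5, and the part of T cells in its rise was not tested. Il10, the anti-inflammatory cytokine that B-1 cells and others make, rose by 3.57 ± 0.55 (edgeR adjusted p = 0.00248), from at most 1.43 CPM in WT to 10.4, 16.6 and 6.59 CPM in P1.

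The receptor gene Ahr, a ligand-activated transcription factor, rose by 1.92 ± 0.27 (edgeR adjusted p = 0.00162), and Itgb1, the integrin beta 1 chain, by 2.42. Tbc1d9 was at 0.81 (edgeR adjusted p = 0.0496), a call lost in 7 of its alternatives. Siglecg, the inhibitory Siglec that is most abundant on B-1 cells, was the gene called lower, with 419, 308 and 319 CPM in WT and 92.9, 41.9 and 187 CPM in P1 (-1.70 ± 0.50, edgeR adjusted p = 0.0359). That call was lost without WT A, B or C or P1 replicate 3 (adjusted p = 0.0711 to 0.109), while it was -2.38 without P1 replicate 5, and B-cell-centred scaling gave 0.88 (adjusted p = 0.0744). Il5ra, the receptor chain for the B-1 growth factor interleukin 5, was at -0.03 ± 0.36 (edgeR adjusted p = 0.969), with 18.4, 26.7 and 15.4 CPM in WT and 18.9, 27.9 and 13.1 CPM in P1. Fcrl5, a receptor of B-1 and marginal zone B cells, had 39.5, 43.8 and 29.6 CPM in WT and 8.31, 3.46 and 69 CPM in P1, where replicate 5 stood apart. Fcrl5 was at -0.47 (edgeR adjusted p = 0.728), and at -2.63 without that library (0.00464).

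**Figure D4:**
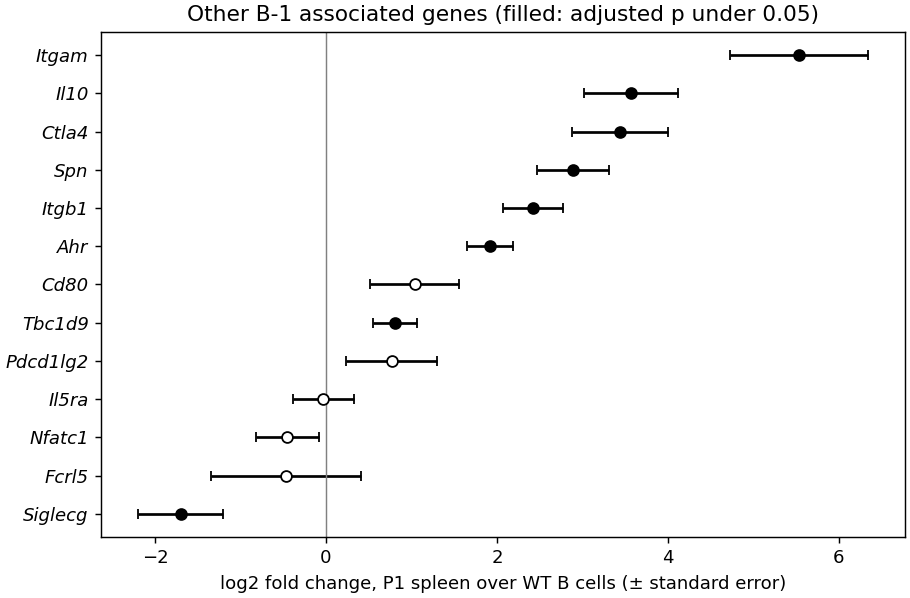
Log2 fold changes with standard errors of the 13 tested genes among 14 other B-1 associated genes, filled where the adjusted p was under 0.05. Itgam is the highest, followed by Il10, Ctla4 and Spn, while Il5ra is at -0.03 and Siglecg at -1.70.

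Of 4 V genes that B-1a cells use to bind phosphatidylcholine, 0 were higher and 2 lower in P1. Among all tested genes 16.9% were higher and 11% lower. Ighv1-69 took 55.5%, 92.6% and 96.8% of the Ighv counts in P1 replicates 3, 4 and 5, which left few for any other Ighv gene. Whether these V genes differ from other V genes was not tested. Ighv11-2 had 51, 92 and 93 counts in WT and 15, 0 and 0 in P1, and Igkv14-126 had 80, 163 and 105 against 7, 0 and 0. Both were called lower (-3.33 ± 1.02 and -4.86 ± 0.93, edgeR adjusted p = 0.0421 and 0.00589), and neither was called under B-cell-centred scaling (-0.52 and -2.13). Without P1 replicate 3, the P1 library that held all their counts, both kept the call. P1 was then at 0 counts, so the fitted values of -8.96 and -9.50 do not measure the size of a fall. The call of Ighv11-2 was lost without any other single library (edgeR adjusted p = 0.0557 to 0.116). Ighv12-3 and Igkv4-91 had 42 and 25 counts in P1 replicate 3 and 0 in the others.

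The genes with the pattern most like Cd5 over the 6 libraries, by Pearson's r of log2 CPM among 10475 candidates, were Chil3 (0.9976), Ttll12 (0.9962), Cd177 (0.9961), Ttc39c (0.996) and Hist1h2ai (0.9957). These points share 2 groups that differ in most respects, so the coefficients describe mainly the step between WT and P1. Chil3 and Cd177 are neutrophil genes, with 5126, 756 and 3435 counts and 4707, 274 and 2119 counts in P1 replicates 3, 4 and 5. Within the set itself r with Cd5 was 0.99 for Zbtb32, 0.96 for Plscr1, 0.95 for Arid3a, 0.93 for Bhlhe41, 0.84 for Cd9 and 0.26 for Bhlhe40, and it was 0.96 for Cd3e.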

How the data were processed

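The authors sequenced RNA of 3 selected B cell samples and 3 spleens with a directional kit, per the labels' protocols. They deposited raw counts per gene. Reads were processed with Trim Galore, HISAT2 and featureCounts on GRCm39, per the submitters' processing notes, and versions and the counting strand are not given in the sources used here. Exon length was deposited beside the counts.

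Symbols were matched to 91.3% of gene IDs, and all 127 list entries matched. Counts were filtered (filterByExpr), scaled by TMM and tested with edgeR 4.0.16 (quasi-likelihood, robust, no covariates, R 4.3.3) over the whole table, with Benjamini-Hochberg adjustment at 0.05. Normalised CPM use TMM-adjusted totals, ± is the standard error of log2 fold changes and the SD otherwise. Ratios used exact permutation tests. Libraries of a group differed beyond sampling noise (chi-square per degree of freedom 19.5 or more). Each sample is labelled as a mouse of its own. Alternatives were DESeq2 1.42.0, library totals, no filter, B-cell-centred scaling and leaving out each library. The 8 genes and all lists were chosen with earlier results of these data known. All 8 genes were named, and any list gene could be. Genes most like Cd5 needed a mean of 5 CPM in the higher group, and antigen receptor segments and models without a curated symbol were left out. The plasma cell (1 higher, 1 lower of 6 tested) and NK cell lists (2 and 0 of 5) were looked at too, beside 16.9% higher and 11% lower of all tested genes. One further gene list and one alternative denominator are not reported here.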

Additional observations from a re-analysis of the deposited data

How the results depend on the processing

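Cd5, Bhlhe41, Zbtb32, Arid3a and Plscr1 kept their direction and their call in all 10 alternatives. The number of the 8 genes called higher ran from 5 to 7. Cd9 lost its call without a filter (2.13) and without WT A, B or C or P1 replicate 5 (1.44 to 2.38), but kept it without P1 replicate 3 or 4 (2.34 and 2.68), and Bhlhe40 gained one under B-cell-centred scaling (3.18). Leaving out P1 replicate 5 moved the fold of Bhlhe41, Arid3a and Cd9 by more than 1.5 times. The cause of these changes was not tested. B-cell-centred scaling gave 12 higher and 0 lower among the other B-1 genes and 13827 higher and 98 lower over all genes. Leaving out 1 library gave 6 to 7 higher and 0 to 2 lower of the other B-1 genes, and 1644 to 3207 higher and 815 to 2313 lower over all genes. Under B-cell-centred scaling Siglecg (0.88), Il5ra (3.06), Fcrl5 (1.75), Nfatc1 (2.68), Arid3b (1.03), Tut4 (1.56), Dis3l2 (2.76), Cd81 (1.55), Cd37 (1.17), Cd53 (1.18), Cd82 (2.88) and Cd2 (1.12) changed sign, under a scaling that moves the median of all genes from 0.02 to 2.91. The log2 difference of Cd5 relative to T cell genes depended on the denominator. It was 2.53 over the summed genes, which Cd2 led in WT, and -0.63 over Cd3e. Without Cd2 and Lck, a choice made after the counts were seen, it was -0.59. Leaving out 1 library gave -1.02 to 0.00 for Cd5 to Cd3e and 6.01 to 6.43 for Cd5 to the pan-B genes. No paired analysis was possible because the labels give no pairing between WT and P1 mice. Counts under about 3 per library limit Lin28b, Igf2bp1, Hmga2 and Arid3c.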
